A study of Rattus norvegicus with 16 samples.

Results

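The genes described here encode amino acid and peptide transporters of 8 solute carrier families, Slc1, Slc3, Slc6, Slc7, Slc15, Slc36, Slc38 and Slc43. They were chosen by name alone: a gene belonged if its name in the array design began with one of these families followed by a member number. This gave 67 of 26113 gene names on the array, measured by 84 of 30367 probes, and each gene was represented by its probe with the highest mean processed Cy5 signal. Slc7a6os matched the rule through its name, although it is a neighbour of Slc7a6 and not a transporter.

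The samples came from suckling Wistar rats (pups of Wistar Han parents) given obestatin by gavage (OH, 250 nmol/kg BW) or saline (C), 2 times per day from day 14 to day 21 of life. Stomach RNA and RNA from the intestine's middle part were hybridised to 16 microarrays, 4 for each tissue of each treatment, and the groups are named by treatment and tissue (C stomach, for example). On each array the tissue of 1 rat was labelled with Cy5 and a common pool made from RNA of all rats with Cy3, always in this dye order, so every level below is a log2 ratio of tissue to pool and cannot be set against the level of another gene. Only 1 dose of obestatin was hybridised, the pups came from several litters, and the labels used here do not tie arrays to litters. By the study's methods each treatment had 4 litters, so litter goes with treatment and cannot be told apart from it.

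Each group occupied a slide of its own, and the OH slides were scanned on another day than the C slides. Treatment, slide and scan day therefore cannot be told apart. The tissues of 1 treatment shared a scan day, but each lay on its own slide, so tissue and slide cannot be told apart either. The labelled tissues carried their markers: 13 of 13 measured genes of stomach mucosa were lower and 14 of 15 enterocyte genes were higher in the middle intestine, in C and in OH. Striated muscle genes were low on 1 C stomach array (replicate 2, mean log2 ratio -0.93 over 14 genes, against 2.80 to 3.48 on the other C stomach arrays). Their mean on the OH stomach arrays lay between -0.52 and 0.97, above C replicate 2 and below the other C stomach arrays. In the stomach, 0 of the 14 genes were called between the treatments. Exocrine pancreas genes were high on 1 OH middle intestine array (replicate 4, mean -1.65 over 11 genes, against -3.28 to -3.02). The share of spots well above background in Cy5 lay between 69.4% and 77.6% on all arrays.

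Dietary protein is absorbed in the small intestine mainly as amino acids and as short peptides. At the brush border, Slc15a1 carries di- and tripeptides with protons, Slc6a19 carries neutral amino acids with sodium, and Slc7a9 with its heavy chain Slc3a1 exchanges cystine and cationic for neutral amino acids. At the basolateral side, Slc7a7, Slc7a6 and Slc7a8 work as exchangers bound to the heavy chain Slc3a2, and Slc43a1 and Slc43a2 let large neutral amino acids leave the cell. In suckling rats this system handles milk protein. The Slc1, Slc6 and Slc38 families also hold glutamate, glycine and monoamine carriers that work in neurons, glia and most other cells.

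The sequences before the transcription start are shown for the 4 uptake genes with the highest tissue differences below, since these genes were high in the same tissue. RefSeq (GRCr8) held such windows for 7 of the 9 genes of luminal uptake. The 250 bases before each start were searched on both strands for 4 motifs of factors known from gut epithelium. The HNF1 motif was GTTAAT and the CDX core was TTTAT, whose reverse overlaps the letters of a TATA box. The HNF4 core was CAAAGT and the GATA motif was AGATAA. Capitals mark the matches. The windows are chr15:104949345-104949594 on the minus strand, chr1:31414494-31414743 on the plus strand, chr6:15394750-15394999 on the minus strand and chr1:97246632-97246881 on the plus strand, in the order printed.
Slc15a1: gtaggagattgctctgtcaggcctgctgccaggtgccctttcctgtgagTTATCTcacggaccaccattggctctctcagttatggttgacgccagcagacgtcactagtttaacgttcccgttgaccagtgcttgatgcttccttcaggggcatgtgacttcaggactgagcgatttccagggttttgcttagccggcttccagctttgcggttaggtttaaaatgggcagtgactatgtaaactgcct
Slc6a19: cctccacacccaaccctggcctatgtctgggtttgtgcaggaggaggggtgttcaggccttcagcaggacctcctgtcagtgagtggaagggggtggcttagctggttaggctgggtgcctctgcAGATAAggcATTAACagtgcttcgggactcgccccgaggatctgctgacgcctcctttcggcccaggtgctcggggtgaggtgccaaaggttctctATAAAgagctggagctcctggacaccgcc
Slc3a1: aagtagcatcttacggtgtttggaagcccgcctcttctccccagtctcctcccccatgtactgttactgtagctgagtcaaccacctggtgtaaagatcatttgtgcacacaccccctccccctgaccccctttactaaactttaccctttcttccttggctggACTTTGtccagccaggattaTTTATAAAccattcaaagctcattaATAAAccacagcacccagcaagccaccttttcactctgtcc
Slc7a9: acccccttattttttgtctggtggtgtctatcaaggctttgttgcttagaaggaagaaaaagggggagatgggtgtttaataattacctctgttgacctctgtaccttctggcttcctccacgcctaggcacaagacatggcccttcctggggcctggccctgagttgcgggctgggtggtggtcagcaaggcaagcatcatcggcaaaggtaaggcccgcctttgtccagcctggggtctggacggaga

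The Slc6a19 window held the GATA motif at position -125, counted from the start, and on the reverse strand the HNF1 motif at position -116 and the CDX core at position -29. The Slc15a1 window held the GATA motif alone, reversed, at position -201. In Slc3a1 the CDX core lay at position -66 and, reversed, at -63 and -41, and the reversed HNF4 core at -86. The Slc7a9 window held none of the 4 motifs. Among all 33469 windows of this length, 6.45% held the HNF1 motif, 39.3% the CDX core, 12.9% the HNF4 core and 10.3% the GATA motif.

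The array reads each gene through a probe of 60 bases, and 3 are printed to show what was hybridised. They stand for a gene of uptake and a gene of exit that were higher in the middle intestine, and for a gene of exit that was higher in the stomach. Coordinates are those of the array design on rn4: Slc6a19 at chr1:30411522-30411581, plus strand; Slc7a7 at chr15:32435500-32435559, minus strand; and Slc43a1 at chr3:68083249-68083308, plus strand.
Slc6a19: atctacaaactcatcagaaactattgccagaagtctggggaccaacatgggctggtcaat
Slc7a7: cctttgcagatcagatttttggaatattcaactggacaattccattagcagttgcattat
Slc43a1: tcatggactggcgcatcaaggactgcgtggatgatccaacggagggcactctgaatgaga

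A gene was tested if some group had its Cy5 signal well above background on each of 4 arrays, which held for 51 of the 67. All 51 reached this in the C stomach, 47 in the OH stomach, 42 in the C middle intestine and 44 in the OH middle intestine. The Slc3 and Slc43 families were measured on all arrays, whereas 8 of the 19 Slc6 genes were left out. The 16 genes left out included Slc1a6, Slc6a3, Slc6a5, Slc6a7, Slc6a13, Slc6a14, Slc6a15, Slc6a16, Slc7a2, Slc7a13, Slc15a2, Slc15a5, Slc36a3, Slc38a8 and Slc38a11. Among them, 7 were well above background on none of the 16 arrays: Slc6a3, Slc6a7, Slc6a14, Slc6a15, Slc6a16, Slc7a13 and Slc15a5.

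**Figure D1:**
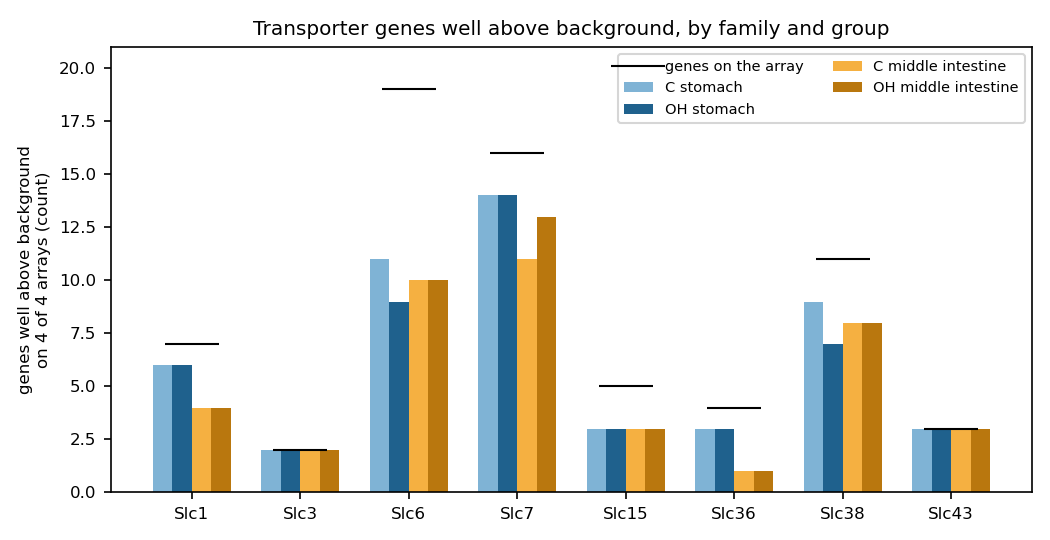
Number of transporter genes (vertical axis, count) whose probe was well above background on all 4 arrays of a group, by solute carrier family (horizontal axis), with 1 bar per group and a black line for the genes of that family on the array. The Slc36 family had 3 genes in each stomach group and 1 in each middle intestine group, the Slc1 family 6 and 4, and Slc3, Slc15 and Slc43 had the same count in all groups.

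The first question was how the transporters differ between the tissues. Between middle intestine and stomach, 31 of the 51 genes differed in C (15 higher and 16 lower in the middle intestine), at an adjusted p under 0.05 in limma. Of all 21170 probes tested, 45% were called in this comparison, 22.3% as higher and 22.7% as lower. In OH, 28 genes differed (13 higher, 15 lower) beside 38.2% of all probes (19.1% higher, 19.2% lower). In both comparisons 25 genes were called, all in the same direction. The share of all probes called in both was not computed, so this count does not show whether the overlap is particular to these genes. The 2 comparisons share no array, but they share the filter, the reference pool and the spread of each gene, estimated over all 16 arrays. Their calls are therefore not independent. Of the lower genes, 6 in C and 4 in OH were dim on some middle intestine arrays and so entered through the stomach, where they were high, while 0 and 1 of the higher genes were dim on some stomach arrays. Among the 40 genes well above background on all 16 arrays, 14 were higher and 11 lower in C, and 12 and 10 in OH. The share of all probes called under this stricter filter was not computed, and the shares above are for another set of probes. The median difference of the 51 genes was -0.0072 in C and 0.057 in OH on the log2 scale, and that of all probes was 0.0073 and -0.0091.

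**Figure D2:**
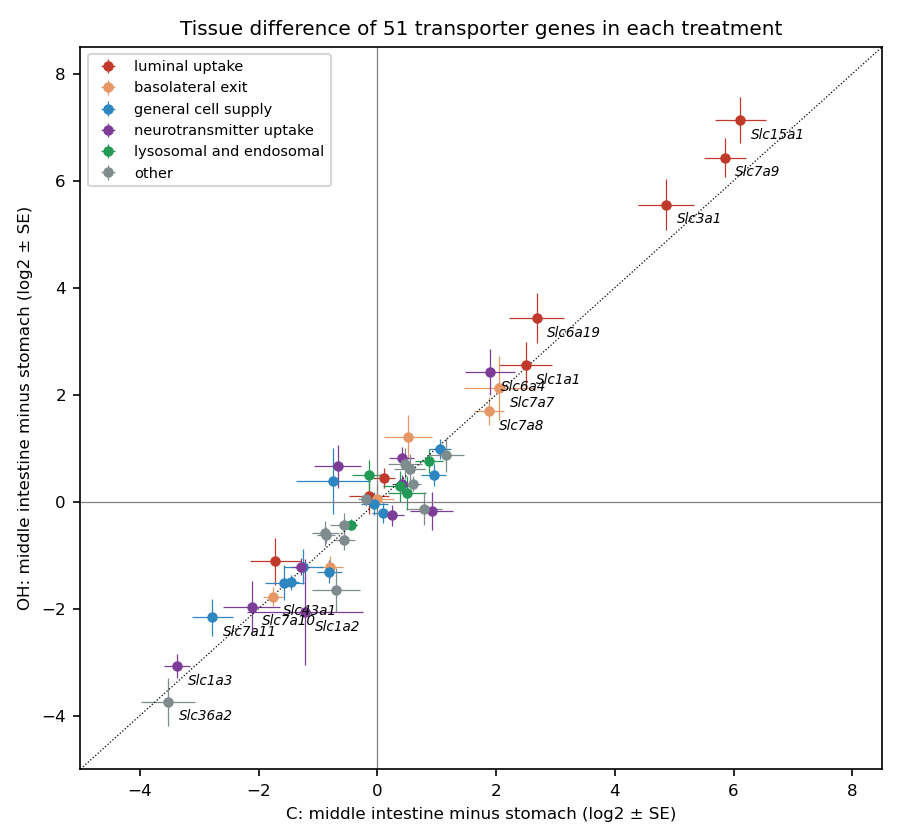
Middle intestine minus stomach difference (log2 ± SE) of the 51 tested transporter genes in C (horizontal axis) and in OH (vertical axis), coloured by role, with 4 arrays in each group and a dotted line of equal values. Slc15a1, Slc7a9, Slc3a1 and Slc6a19 lie at the upper right, Slc36a2 and Slc1a3 at the lower left.

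The genes of luminal uptake stood highest. Of the 8 measured, 5 were higher in the middle intestine in C and in OH, and their median difference was 2.59 in C and 2.99 in OH. Slc15a1 gave log2 ratios of -4.52, -5.17, -3.37 and -3.95 in the C stomach and of 2.18, 2.05, 2.05 and 1.16 in the C middle intestine. In OH it gave -4.86, -4.45, -4.95 and -4.54 in the stomach and 2.82, 3.55, 1.80 and 1.57 in the middle intestine. No stomach array came near a middle intestine array in either treatment. The difference was 6.11 ± 0.43 (SE) in C, or 69.1-fold, and 7.14 ± 0.43 in OH, or 141-fold, with adjusted p of 4.5e-08 and 9e-09 in limma. A peptide carrier thus had the widest gap between the tissues among the 51 genes.

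The pair that forms the cystine and cationic amino acid exchanger moved together. Slc7a9, the light chain, had ratios of -5.25, -5.51, -4.41 and -5.18 in the C stomach and of 1.17, 0.55, 1.27 and 0.07 in the C middle intestine. Slc3a1, its heavy chain, had -3.64, -4.30, -3.93 and -3.64 in the C stomach and 1.43, 0.89, 1.60 and 0.03 in the C middle intestine. The lowest middle intestine value of both genes came from the same array, replicate 4, and still lay far above every stomach value. Slc7a9 differed by 5.85 ± 0.36 in C and 6.43 ± 0.36 in OH, and Slc3a1 by 4.87 ± 0.47 and 5.56 ± 0.47, with adjusted p of 1.3e-06 or less in limma.

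Slc6a19, the neutral amino acid carrier, ranged from -3.58 to -2.58 in the C stomach and from -0.67 to 0.18 in the C middle intestine. The groups did not overlap, nor did they in OH, where the middle intestine ranged from -1.17 to 1.62. Its difference was 2.68 ± 0.47 in C (adjusted p = 0.00032) and 3.44 ± 0.47 in OH (adjusted p = 4e-05, limma), and 1.71 in C with normexp, another background correction. Slc1a1, which takes up glutamate and aspartate, was higher by 2.50 ± 0.45 and 2.55 ± 0.45 (1.27 and 1.36 with normexp), with 1 OH stomach array at -2.14 and the other 3 between -0.33 and -0.10.

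The remaining uptake genes did not share this pattern. Slc36a1, a proton-coupled carrier of small amino acids, was lower in the middle intestine of C by 1.72 ± 0.43 (adjusted p = 0.0052, limma), and in OH its difference was -1.12 ± 0.43 (adjusted p = 0.055). Its probe was well above background on all stomach arrays and on only 2 of 4 middle intestine arrays in each treatment. Slc6a20, which carries proline, differed by -0.14 ± 0.34 in C and 0.10 ± 0.34 in OH, and Slc6a6, the taurine carrier, by 0.11 ± 0.19 and 0.44 ± 0.19. Neither gene was called, although Slc6a6 in OH (adjusted p = 0.073, limma) was called under 6 of the alternatives. Slc6a14 was not well above background on any array.

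**Figure D3:**
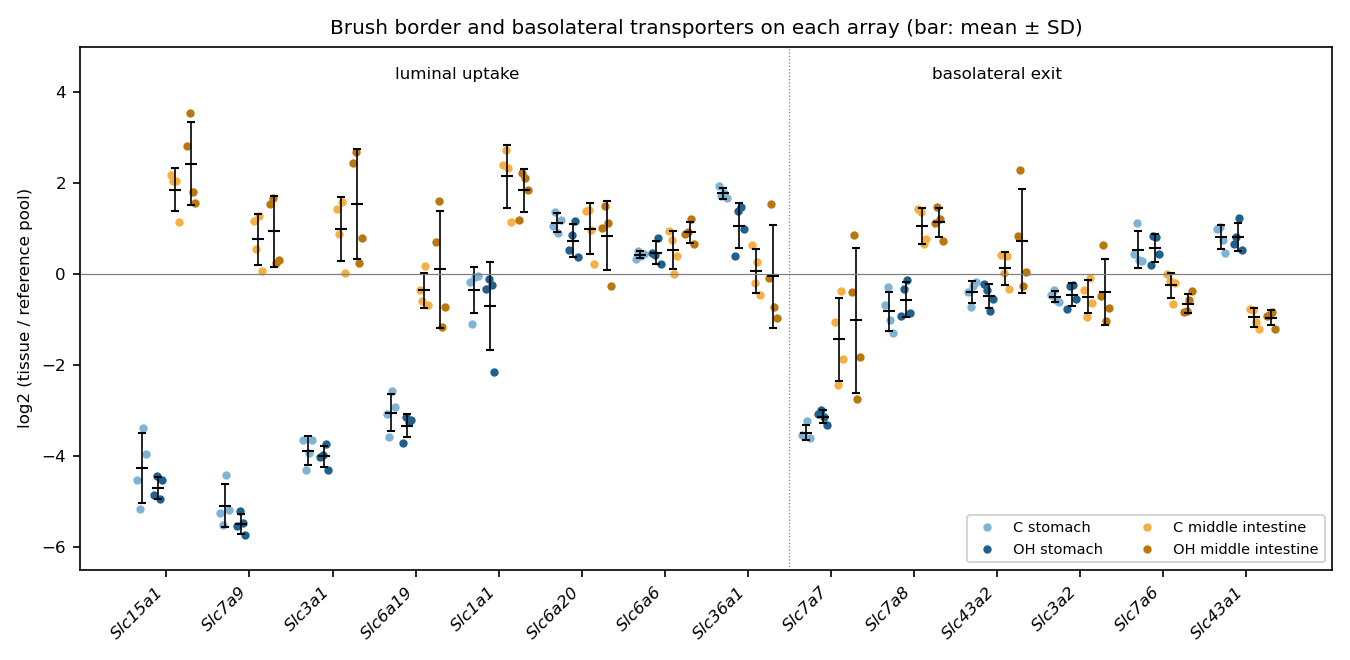
Log2 ratio of tissue to reference pool (vertical axis) of the 8 measured genes of luminal uptake and the 6 of basolateral exit, with 1 point per array and the mean ± SD of the 4 arrays of each group. In Slc15a1, Slc7a9, Slc3a1, Slc6a19, Slc1a1, Slc7a7 and Slc7a8 every middle intestine point lies above every stomach point of the same treatment, while Slc43a1 and Slc7a6 run the other way.

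The genes of basolateral exit were divided between the tissues. In C, 2 of 6 were higher and 2 lower in the middle intestine, and in OH 3 were higher and 2 lower. Slc7a7, which exports cationic amino acids, had ratios of -3.53, -3.56, -3.23 and -3.61 in the C stomach and of -1.05, -2.43, -0.36 and -1.87 in the C middle intestine. The stomach arrays were close to one another and the middle intestine arrays spread widely, without overlap. The difference was 2.05 ± 0.60 in C and 2.12 ± 0.60 in OH, each with an adjusted p of 0.012 in limma, and 1.09 in C with normexp. Slc7a8, an exchanger of neutral amino acids, was higher by 1.88 ± 0.26 and 1.70 ± 0.26.

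Slc43a1 showed the reverse. Its ratios were 0.99, 1.05, 0.76 and 0.47 in the C stomach and -0.76, -0.79, -1.04 and -1.19 in the C middle intestine. No stomach array overlapped a middle intestine array, in C or in OH. The gene was 3.39-fold higher in the stomach in C and 3.42-fold in OH (adjusted p = 1.3e-06 and 1.4e-06, limma), and with normexp its difference was -1.10 and -1.20. Slc7a6 was lower in the middle intestine by 0.79 ± 0.21 in C (dropped by 1.22 in OH). Slc43a2, the closest relative of Slc43a1 in the list, differed by 0.52 ± 0.41 in C, which was not called, and by 1.21 ± 0.41 in OH (adjusted p = 0.030, limma), where without OH middle intestine replicate 2 it was 0.69 and not called. Its second probe gave 0.050 in C and 0.54 in OH (adjusted p = 0.91 and 0.20) and was not called. Slc3a2, the heavy chain shared by the exchangers, differed by -0.0072 ± 0.29 and 0.049 ± 0.29 and was not called.

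Outside these lists, Slc1a3 and Slc36a2 had the lowest differences in C and in OH. Slc1a3, a glutamate carrier known from glia, had ratios of 1.34, 1.88, 1.44 and 1.42 in the C stomach and of -1.62, -1.98, -2.47 and -1.34 in the C middle intestine. It was 10.4-fold higher in the stomach in C and 8.43-fold in OH (adjusted p = 2.1e-08 and 5.7e-08, limma). Slc36a2, a carrier of glycine, alanine and proline, was also called lower in the middle intestine in both treatments, but its probe was well above background on 1 of 4 middle intestine arrays in each. The size of its difference rests on dim spots: -3.52 in C and -3.74 in OH, against -1.15 and -1.42 with normexp. Of 14 measured markers of enteric neurons and glia, 5 were higher and 1 was lower in the middle intestine in C, and 4 and 0 in OH, with a median of 0.38 and 0.057. Striated muscle markers were lower in the middle intestine for 11 of 14 genes in C and 2 of 14 in OH, and their part in the stomach levels of these transporters was not tested.

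Of the 10 measured genes of general cell supply, 5 were lower in the middle intestine in C and in OH, while 2 in C and 1 in OH were higher. Slc7a11, the cystine and glutamate exchanger, was lower by 2.78 ± 0.35 in C and 2.16 ± 0.35 in OH on the log2 scale. Slc38a2, which is known to respond to amino acid shortage, was the most even: its stomach ratios lay between 0.40 and 0.75 and its middle intestine ratios between -1.12 and -0.49 over both treatments. It differed by -1.45 ± 0.14 and -1.50 ± 0.14 (adjusted p = 1.3e-06 and 9.6e-07, limma). Slc38a5 was lower by 0.81 ± 0.21 and 1.31 ± 0.21. The related Slc38a1 went the other way, higher by 1.05 ± 0.19 and 0.99 ± 0.19, as did Slc7a5, a carrier of large neutral amino acids, by 0.95 ± 0.21 in C, while in OH its 0.50 ± 0.21 was not called.

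Dim signals limit 2 further genes of this list. Slc1a4 was well above background on all 8 stomach arrays, on 1 array of the C middle intestine and on 0 of the OH middle intestine. In OH it was at least 1.57-fold higher in the stomach, a bound set by the lowest measurable signals of the dim arrays. The bound itself was not tested. The adjusted p of 0.0087 (limma) belongs to the ratio difference of -1.22, which rests on dim spots in the middle intestine. Slc38a3 was above background on all C stomach arrays and on no middle intestine array, and the bound computed in the same way was under 1, so no fold is given.

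Among the 10 measured genes of neurotransmitter uptake, 2 were higher and 3 lower in the middle intestine in each treatment, Slc1a3 among the latter. Slc6a4, the serotonin transporter, ranged from -1.52 to 0.13 in the C stomach and from 0.76 to 2.12 in the C middle intestine. It was 3.73-fold higher in C and 5.37-fold in OH (adjusted p = 0.0024 and 0.00041, limma), and with normexp the difference was 0.66 and 1.02. Slc6a2, the noradrenaline transporter, differed by 0.41 in C, which was not called, and by 0.82 in OH (adjusted p = 0.0057, limma). Slc6a9, a glycine transporter, was lower in the middle intestine by 1.28 ± 0.16 and 1.22 ± 0.16, and Slc7a10, an exchanger of small neutral amino acids, was lower by 2.12 ± 0.49 in C, with its probe above background on 2 of 4 C middle intestine arrays and a difference of -0.74 with normexp.

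Lysosomal carriers differed little: Slc15a3 was higher by 0.87 in C and 0.76 in OH, Slc15a4 was lower by 0.44 in both, and the other 3 of 5 were not called. Of the 12 genes in no other list, 3 were higher and 4 lower in C, and 1 and 4 in OH, Slc36a2 among the lower ones in both. Slc7a3, a cationic amino acid carrier, was lower in OH by 1.65 ± 0.41 (-0.81 with normexp), while in C its -0.70 was not called. Slc36a4 was higher by 1.15 in C and 0.87 in OH, but its second probe gave -0.017 and 0.33 and was not called. Slc7a6os and its neighbour Slc7a6 were called in opposite directions in C, with Slc7a6os higher in the middle intestine by 0.60.

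For 8 genes more than 1 probe could be tested, and in C the probes of 7 had the same sign. The 3 probes of Slc15a1 gave 6.11, 5.84 and 2.48 in C and 7.14, 7.25 and 4.02 in OH, all called. The probes of Slc1a3 gave -3.37 and -4.12 in C. Slc7a1, a cationic amino acid carrier, had probes that differed in their call: the chosen probe gave -0.049 in C and -0.038 in OH, and a second one gave -2.02 and -2.25 (adjusted p = 0.019 and 0.012, limma). Its tissue difference is therefore uncertain.

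Genes that work beside these transporters were read from a list outside the naming rule, of which 12 were measured. In C, 6 were higher and 2 lower in the middle intestine, and in OH 7 and 3, with a median of 1.15 and 1.41. Tmem27, which is known to bind Slc6a19 in the kidney, was lower by 1.82 in C and 1.42 in OH. Slc16a10, an exporter of aromatic amino acids, was higher by 1.74 and 2.01. The sodium proton exchanger Slc9a3, whose proton gradient serves Slc15a1, was higher by 1.47 and 2.00, and the scaffold Pdzk1 by 2.06 and 2.44. Of 14 genes of the amino acid response, 1 was higher and 2 were lower in C and 2 each in OH, and Asns, the textbook target of that response, was not called in either treatment.

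Within the middle intestine the uptake genes varied from rat to rat, most of all in OH. The mean log2 ratio of 15 enterocyte markers was 1.17 and 1.70 on OH replicates 1 and 2 and -0.32 and 0.42 on replicates 3 and 4. Slc6a19 followed with 0.72, 1.62, -1.17 and -0.73, Slc7a7 with -0.38, 0.87, -2.74 and -1.81, and Slc3a1 with 2.46, 2.68, 0.26 and 0.80. These genes were picked as examples after their values were seen. Replicates 1 and 2 stood above replicates 3 and 4 in 8 of the 14 measured genes of uptake and exit, and in 6 they did not, among them Slc1a1, which was lowest on replicate 1 at 1.19. The share of all probes with this order was not computed, so the count does not show whether the order is particular to these genes. In C the markers were lowest on replicate 1, at 0.14, where Slc3a1 (1.43), Slc7a7 (-1.05) and Slc6a19 (-0.34) were each second highest of 4. On the OH middle intestine arrays, Slc43a1 stayed between -1.20 and -0.83 and Slc7a8 between 0.73 and 1.49. In bulk tissue fewer cells of a type and less RNA per cell cannot be told apart, and the part of the marker spread in these values was not tested.

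**Figure D4:**
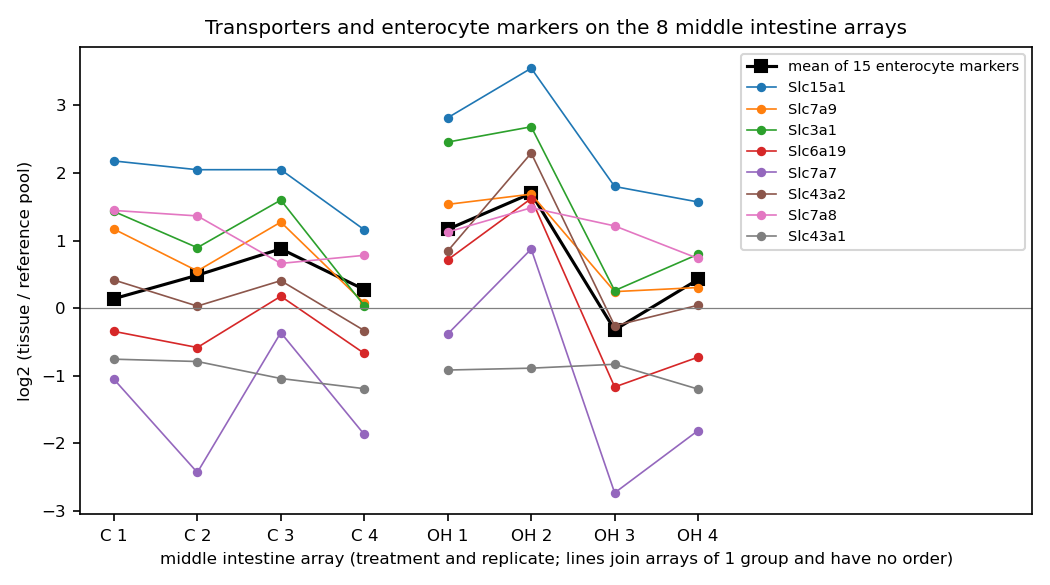
Log2 ratio of tissue to reference pool (vertical axis) of 8 transporter genes and the mean of 15 enterocyte markers (black squares) on each of the 8 middle intestine arrays (horizontal axis). Lines join arrays of 1 group for reading only. Slc7a7, Slc6a19, Slc3a1 and Slc43a2 are high on OH replicates 1 and 2, where the markers are at 1.17 and 1.70, and Slc43a1 stays level.

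The second question was whether obestatin changed the transporters. None of the 51 genes was called between OH and C in the stomach or in the middle intestine, nor for the mean of both tissues, nor for the difference between the tissues, in limma at an adjusted p under 0.05. Of all 21170 probes, 0% were called in the stomach, 0.368% in the middle intestine, 0.685% for the mean and 0% for the difference between the tissues. At an unadjusted p under 0.05, 2 transporters passed in the stomach beside 10.6% of all probes, 0 in the middle intestine beside 10.5%, 5 for the mean beside 14.5%, and 2 for the difference beside 5.85%. The median OH minus C difference of the transporters was -0.019 in the stomach and -0.014 in the middle intestine. The test of the study's methods, ANOVA followed by Tukey's test, also called 0 of the 51 genes in each tissue. Here the adjusted p of the ANOVA and the p of Tukey's test both had to be under 0.05. The number of all probes called in this way was not computed. The study itself reported genes that differed between the treatments in each tissue by Tukey's test.

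In the stomach the smallest p belonged to Slc7a11. Its ratios were 0.85, -0.55, 0.72 and 1.05 in C and -0.69, -0.12, 0.29 and -0.86 in OH, and the groups overlapped through C replicate 2. The difference was -0.87 ± 0.35 (unadjusted p = 0.025, adjusted p = 0.42, limma; exact permutation p = 0.086, two-sided, where 4 against 4 arrays cannot go below 0.0286). Without C replicate 2 it was -1.22 with an adjusted p of 0.047, and with array weights -1.08 with an adjusted p of 0.029 (limma). The share of all probes called under these settings was not computed, so these calls do not show whether the change is particular to Slc7a11. Replicate 2 was the C stomach array low in striated muscle genes, and the OH stomach arrays were low in them too (means of -0.52 to 0.97). The median OH minus C difference of 14 striated muscle genes was -2.20 in the stomach, with 0 called. Its part in the Slc7a11 difference was not tested. The Cy5 signal of Slc7a11, scaled to the 75th percentile of its array, differed by -0.84 ± 0.46 and the Cy3 signal of the pool by 0.018 ± 0.033.

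Slc36a1 was the 1 gene whose stomach arrays did not overlap between the treatments, a pattern that 7.6% of all probes showed. It had 1.95, 1.72, 1.78 and 1.69 in C and 0.41, 1.39, 1.49 and 1.00 in OH, a difference of -0.71 ± 0.43 (adjusted p = 0.59, limma). Slc36a4 gave a difference of 0.72 ± 0.32, but in its Cy5 signal 0.12 and in its Cy3 signal -0.60. The Cy3 difference was also the larger one for Slc7a12 (0.48, with 0.077 in Cy5 and -0.41 in Cy3) and Slc1a7 (0.36, with 0.058 and -0.31). Slc15a4, at -0.17, had 0.053 in Cy5 and 0.22 in Cy3.

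Slc7a3 and Slc6a17 were at 1.26, -0.01, -0.70 and 0.84, and at 2.31, 0.64, 0.41 and 1.86, on the 4 OH stomach arrays. The smooth muscle list, 8 measured genes, had means of 0.96, -1.32, -2.59 and 0.16 on these arrays and between -2.57 and -1.38 on the C stomach arrays. Both transporters were thus high where the smooth muscle genes were high, but smooth muscle was not alone in this. Striated muscle genes had means of 0.97, -0.27, -0.52 and 0.64 on these arrays. Markers of enteric neurons and glia had 0.38, -0.49, -0.16 and 0.18. On the C stomach arrays, smooth muscle (-1.38) and Slc6a17 (0.91) were highest on replicate 3, but Slc7a3 (0.46) on replicate 4. The part of these cell types in the transporters' differences of 0.75 ± 0.41 and 0.65 ± 0.36 was not tested. Slc6a4 differed by -0.80 ± 0.43 and Slc6a11 by -0.77 ± 0.40 in the stomach. Neither was called.

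In the middle intestine the genes of uptake did not separate the treatments. Slc15a1 differed by 0.58 (adjusted p = 0.72), Slc3a1 by 0.56, Slc6a19 by 0.47 and Slc7a9 by 0.18, each within the spread of the OH arrays. The 5 transporters with the smallest p among those higher in OH were Slc6a6 (0.39 ± 0.19), Slc6a2 (0.41 ± 0.21), Slc43a2 (0.60 ± 0.41), Slc6a11 (0.56 ± 0.40) and Slc36a4 (0.44 ± 0.32). Among those lower they were Slc7a5 (-0.45 ± 0.21), Slc6a12 (-0.33 ± 0.17), Slc7a6 (-0.40 ± 0.21), Slc1a5 (-0.33 ± 0.19) and Slc38a7 (-0.48 ± 0.28). The lowest adjusted p of the middle intestine was 0.49, for Slc7a5, whose C arrays at 1.12, 0.68, 0.46 and 0.18 overlapped the OH arrays at 0.28, 0.11, 0.30 and -0.03. Only Slc15a4 kept its arrays apart (C 0.23 to 0.27, OH -0.11 to 0.17), beside 5.86% of all probes, and its difference was -0.16 with an adjusted p of 0.66.

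For Slc6a6, Slc6a11 and Slc36a4 the pool moved more than the tissue: in Cy3 they differed by -0.36, -1.01 and -0.73 and in Cy5 by 0.012, -0.46 and -0.30. For Slc7a5, Slc7a6 and Slc6a2 the tissue and the pool moved by similar amounts in opposite directions, so their ratios do not stand for the tissue signal alone. Over all 51 genes the Cy3 difference exceeded the Cy5 difference in size for 18 in the stomach and 20 in the middle intestine. The reference channel alone, scaled to the 75th percentile and tested in limma, was called between OH and C slides for 18 and 27 of the 51 genes, beside 43.8% and 60.7% of all probes. The pool was the same RNA by design, and the part of this in the OH minus C ratios was not tested.

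**Figure D5:**
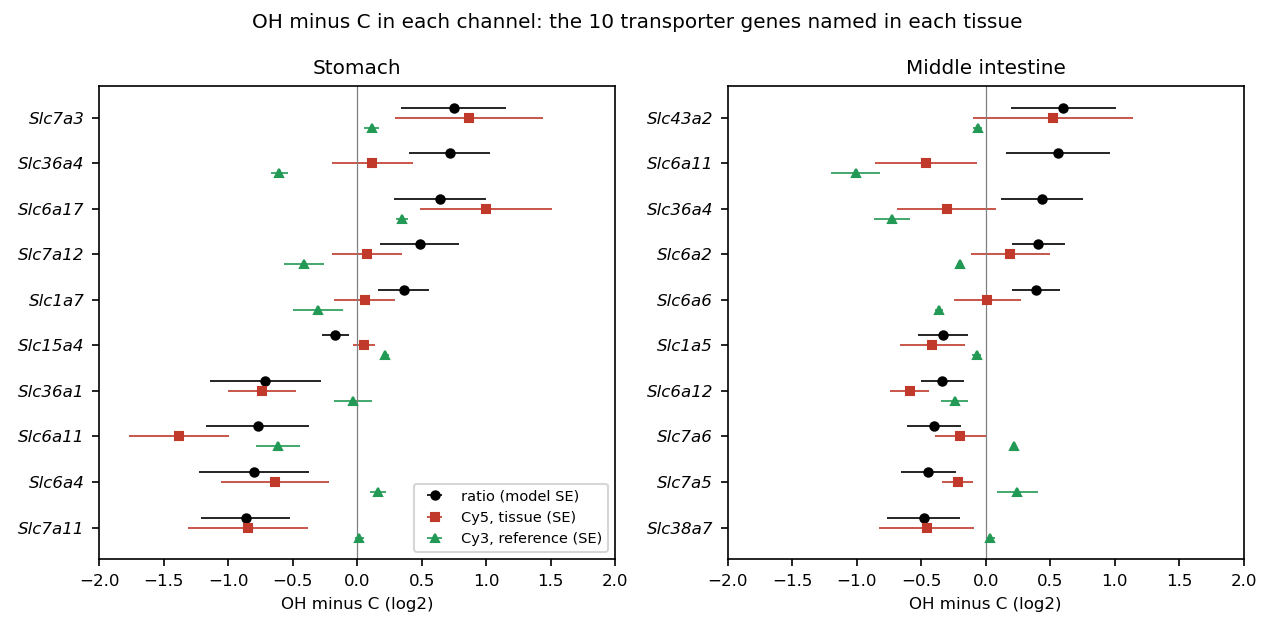
OH minus C difference (log2, horizontal axis) of the 10 transporter genes named in the stomach (left) and in the middle intestine (right): the ratio with its model SE (black), the Cy5 tissue signal (red) and the Cy3 pool signal (green), each channel scaled to its 75th percentile and with its SE over 4 arrays per group. For Slc36a4 in both tissues and for Slc6a11 in the middle intestine the green point lies farther from 0 than the red one.

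The difference between the tissues in the effect of OH was not called for any transporter. The 5 with the smallest p were Slc6a11 (1.33 ± 0.57, middle intestine minus stomach), Slc6a17 (-1.09 ± 0.50), Slc7a12 (-0.92 ± 0.44), Slc1a7 (-0.50 ± 0.28) and Slc15a1 (1.02 ± 0.61), with adjusted p from 0.84 to 0.85 in limma. For Slc15a1 this was the gap between -0.45 in the stomach and 0.58 in the middle intestine. For Slc6a11 the OH minus C difference in the middle intestine was 0.56 in the ratio but -0.46 with Cy5 alone.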

How the data were processed

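Samples were grouped by their labels, 4 arrays per group, and each array is taken as 1 rat. The study's methods can be read as both tissues taken from the same 4 rats of a treatment, which the labels do not settle. For each array the authors deposited Agilent Feature Extraction output, with version 10.10.1.1 per the file headers and 10.7.3.1 in the submitters' processing notes: spot intensity in both channels, raw and processed (background-subtracted and dye-normalized, with surrogate values for dim spots), and quality flags. A deposited table of log10 ratios equals the ratios in that output, to rounding on 1 array, and has no scaling between arrays. All columns were matched to samples. Marks such as outlier flags and well above background (a value of another kind, 0 or 1) were taken as deposited.

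Control spots and outlier spots were left out, log2 ratios of processed Cy5 to Cy3 were averaged over the spots of a probe, and a probe was kept (21170 of 30367) if some group had it well above background, in Cy5, on each of 4 arrays. One mean per group was fitted over 16 arrays with limma 3.58.1 in R 4.3.3, with Benjamini-Hochberg adjustment over all kept probes and a threshold of 0.05. The ± values of differences are SE of this fit. Since arrays are not tied to litters, p-values measure the spread between these arrays. Alternatives changed the background correction, normalization, filter, moderation, probe choice and test, added array weights or blocks, and left out arrays. The script was tested on simulated data. The number of arrays limits the precision, and correlations between arrays of 1 group were 0.71 to 0.94.

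Members and gene lists (roles, partners, amino acid response, cell type markers) were chosen with earlier results of these data known. Named genes are all measured genes of uptake and exit, per tissue comparison the 10 called genes with non-overlapping arrays and the largest differences in each direction, per treatment comparison the 5 smallest p in each direction, and the 5 smallest p for the difference between tissues. Slc7a1, Slc7a6os, Slc15a3 and the partner genes were outside this rule and chosen after their values were seen. RefSeq accessions matched 63 of 67 probes.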

Additional observations from a re-analysis of the deposited data

Results flagged for a closer look

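Among 37 named genes, 148 groups of 4 arrays were checked for an array far from the other 3 by Dixon's test, and 6 were marked, where chance marks about 1 in 20, or 7.4. In the C middle intestine, Slc15a1 was 1.16 on replicate 4 against 2.05 to 2.18 on the others, and that array also had the lowest Slc7a9 and Slc3a1. Slc1a1 was -1.10 on C stomach replicate 2 (others -0.18 to -0.05), the array low in striated muscle genes, and -2.14 on OH stomach replicate 4 (others -0.33 to -0.10). Slc6a11 was -0.04 on C stomach replicate 1 (others 0.38 to 0.40). On OH middle intestine replicate 1, Slc15a4 was -0.11 (others 0.16 to 0.17) and Slc38a1 was -0.17 (others 0.32 to 0.33). What set these arrays apart was not tested.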

How the results depend on the processing

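The number of transporters called between tissues stayed within 22 and 35 under every alternative run, against 31 in C and 28 in OH, and no called gene changed direction. Leaving out each array in turn gave 28 to 32 in C, 26 to 31 in OH and 36 to 40 for the mean of both treatments. Without C stomach replicate 2 and OH middle intestine replicate 4 together, an alternative chosen after seeing the data, 30 were called in C and 29 in OH. Single values changed more: with normexp and loess most differences shrank, Slc38a3 in C to -0.19 (not called), Slc1a4 to -0.26 in C (its call was lost with Cy5 alone, at -0.91), Slc7a10 in C to -0.74, Slc36a1 in C to -0.58, Slc6a4 in C to 0.66 and Slc1a1 in C to 1.27. The call of Slc36a4 in OH was lost in 11 alternatives and that of Slc43a2 in OH in 6, and Slc36a1 in OH was gained in 4 and Slc6a6 in OH in 6. The cause was not tested.

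For OH against C, calls appeared where the count had been 0. The share of all probes called was not computed for the alternatives below, except at an unadjusted p. In the stomach, 1 gene was called without a filter on dim probes (Slc15a5, dim on all arrays), 2 with array weights (Slc7a11 and Slc1a7), 2 at an unadjusted p, 0 to 1 with single arrays omitted (1 without C stomach replicate 2, Slc7a11) and 1 with the 2 doubted arrays left out together. In the middle intestine 1 (Slc15a5) was called without a filter. For the mean of both tissues 2 were called with Cy5 alone (Slc6a11 and Slc6a12), 1 without a filter (Slc15a5) and 5 at an unadjusted p, and for the difference between tissues 2 at an unadjusted p.

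Signs reversed only in uncalled values. With Cy5 alone, Slc6a20 was 0.12 in C and -0.18 in OH between tissues, and OH minus C was 0.053 for Slc15a4 in the stomach and -0.46 for Slc6a11 and -0.30 for Slc36a4 in the middle intestine. With array weights Slc6a20 was 0.055 in C and -0.069 in OH and Slc3a2 -0.020 in OH. With arrays left out in turn, Slc3a2 ranged from -0.14 to 0.14 in C and from -0.30 to 0.26 in OH, Slc6a20 from -0.27 to 0.12 in C and from -0.11 to 0.47 in OH, and Slc6a6 from -0.034 to 0.28 in C. Without the 2 doubted arrays Slc3a2 was 0.044 in C.

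The labels do not say that a number marks 1 rat. Correlations of the deviations of same-numbered arrays were 0.059 to 0.25 between the tissues in C, all positive, -0.12 to 0.32 between the tissues in OH, -0.36 to 0.30 between treatments in the stomach and -0.40 to 0.51 in the middle intestine. Not every pair was over 0.1 in any comparison, so the numbers were not taken to pair the arrays. With the replicate block, 32 were called in C, 29 in OH and 0 for OH against C in either tissue. With slide as a random block, 38 were called for the mean tissue difference and 0 for the mean treatment difference. A fit to only the groups compared was not run for the means and for the difference between tissues, which use all groups.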
